A study of Mus musculus with 4 samples.

Results

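Described here are 8 of the 18825 genes in the count table, followed through all 14 clusters of myeloid cells from atherosclerotic mouse aortas. The genes are Retnla, Ear2, Lyz1, Fn1, Wnt11, Cd226, Bcam and Ryr1. They were selected on their counts in cluster 13 of these same cells, a cluster of 41 cells that had been linked to macrophages of the body cavities. Their high level in cluster 13 is therefore what chose them; it is given below as a description, with no test.

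The cells were live leukocytes carrying CD45, the surface protein shared by white blood cells, taken from the aortas of Apoe-/- mice given a western diet for 13 weeks. Without apolipoprotein E, a carrier for the uptake of lipoprotein remnants, such mice form atherosclerotic plaques. Every mouse of the series carried this genotype and diet, so no condition could be compared. Libraries 1-1 and 1-2 make up biological replicate 1, and libraries 2-1 and 2-2 biological replicate 2; how the 6 mice of the series text were divided over them is not stated. The spread between the 2 replicates is given as the error throughout, and part of it may be technical.

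Macrophages of the pleural and peritoneal cavities of mice are known in a large form, which depends on the transcription factor GATA6, and in a small form rich in MHC class II, which is fed by monocytes carrying the chemokine receptor CCR2. Retnla and Cd226 are known from the small form. Cells with such a profile have also been described in digested atherosclerotic aortas of mice.

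The 4 libraries held 236 to 1231 cells and 1698585 to 5954716 UMIs (molecular tags, each standing for 1 captured transcript), 15893384 UMIs in all. Cluster 13 had 4, 24, 3 and 10 cells in libraries 1-1, 1-2, 2-1 and 2-2, which is 28 cells in replicate 1 and 13 in replicate 2. It made up 1.37% of the 3002 cells and 2.47% of the UMIs. Its median cell held 8968 UMIs (range 1503 to 23242) and 2581 genes, whereas clusters 3, 8 and 10 were shallow, with medians of 834, 980 and 805 UMIs. No cell barcode was shared between libraries.

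Each of the 8 genes had its highest level in cluster 13. Levels are UMIs per 1000000 (CPM) after the deposited counts of a cluster were added up within each biological replicate, and they are compared between clusters, not between genes. For all 8 genes the lower replicate of cluster 13 stood above the higher replicate of every other cluster. A log2 fold was taken per replicate between cluster 13 and the mean of the other 13 clusters, after adding 10 CPM to both. Its median over the 8 genes was 3.78 ± 0.13 (SD, n = 2 replicates), beside a median of -0.14 over all 11101 genes that had at least 10 UMIs in each replicate. All 8 genes passed that filter, and all 8 were at least 2-fold higher in both replicates, as were 1.45% of the genes tested (161 genes). With 1 library left out the number was 7 for 2 of the 4 libraries: without library 1-2 the log2 fold of Wnt11 was -0.80 in replicate 1 and 2.52 in replicate 2, and without library 2-2 that of Bcam was 3.08 in replicate 1 and -0.01 in replicate 2. Nothing is read from these counts, since the same contrast chose the genes.

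**Figure D1:**
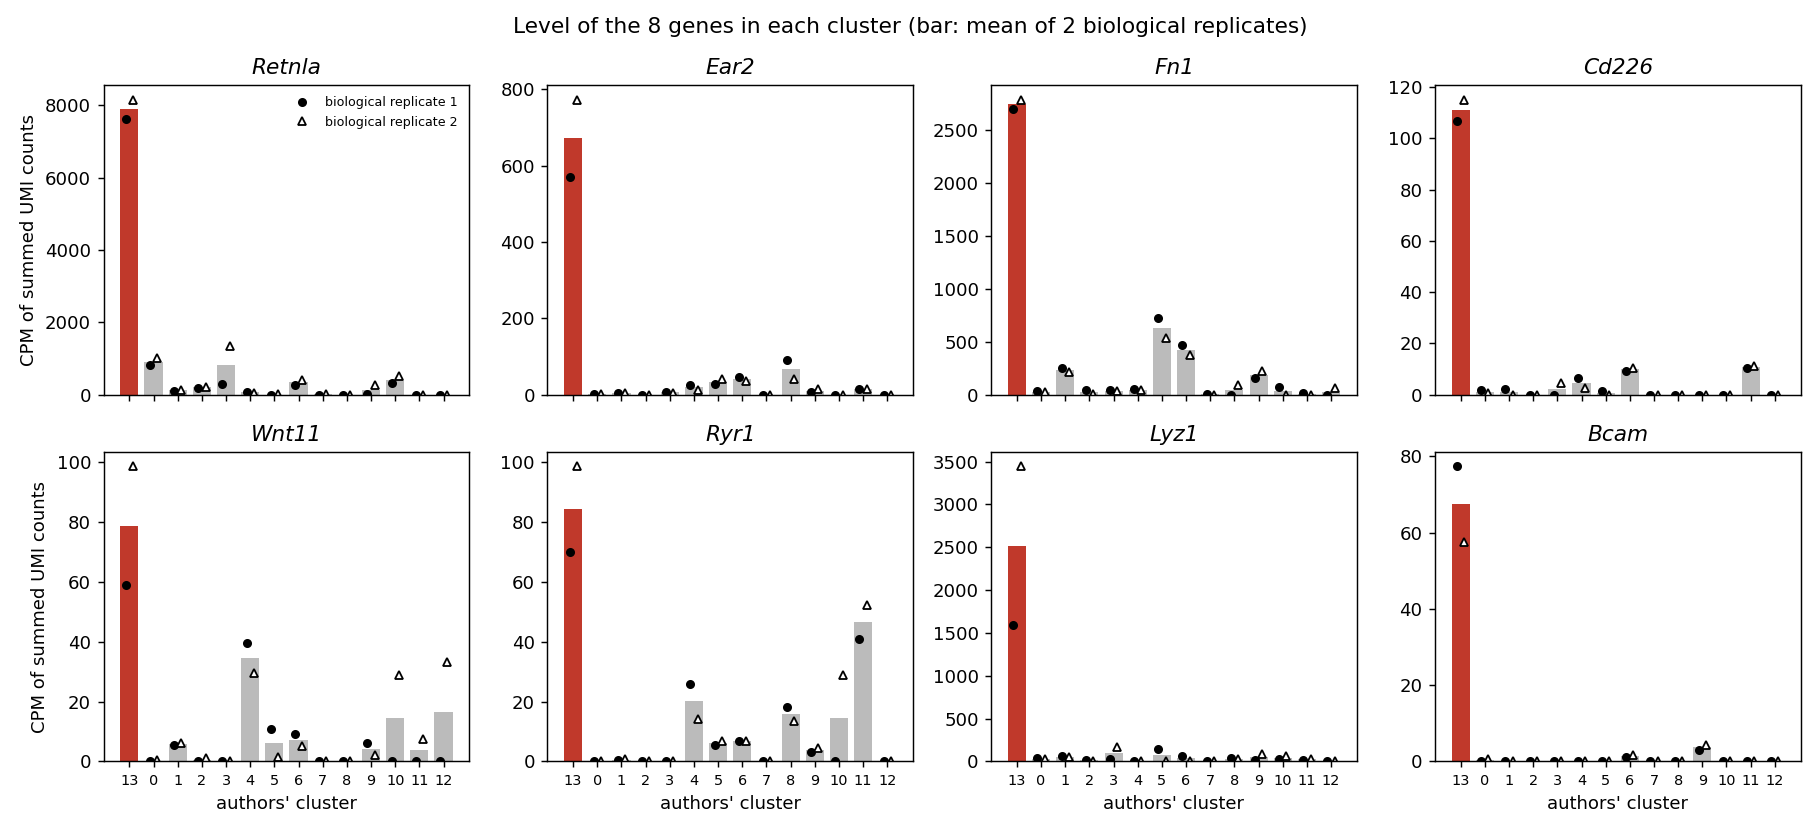
Level of each of the 8 genes in the authors' 14 clusters, cluster 13 in red and the others in grey. The vertical axes give CPM of summed UMI counts on a linear scale that differs between panels, bars are means of 2 biological replicates and symbols the replicates; Ryr1 and Wnt11 come closest to cluster 13 elsewhere, in clusters 11 and 4.

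Among the genes for secreted proteins, Retnla encodes resistin-like molecule alpha, a small protein that macrophages make under interleukin 4 through the factor STAT6. It lies on chromosome 16, 48842551 to 48844461, plus strand (GRCm38, GENCODE M21). Retnla had 2066, 9458, 6146 and 9246 CPM in the cluster 13 cells of libraries 1-1, 1-2, 2-1 and 2-2. The 4 cells of library 1-1 were the lowest. By replicate it had 7627 and 8152 CPM in cluster 13, against 816 and 1017 in cluster 0, the next highest, and the log2 fold over the mean of the others was 5.09 ± 0.58 (SD, n = 2). Cluster 3 followed with 285 and 1353 CPM, so the order of clusters 0 and 3 lay within the replicate spread. Clusters 8, 11 and 12 had no Retnla UMI. Cluster 13 held 3063 of the 7859 Retnla UMIs of all cells, or 39.0%. Cluster 0, whose marker genes are those of resident macrophages, held 2992, spread over 68 of its 635 cells.

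The RefSeq promoter of Retnla (GRCm38.p6, chr16:48842359-48842658, plus strand) is shown because the gene is a known STAT6 target. It runs from 250 bases before the start of transcription to 50 after it, and capitals mark matches to any of 4 motifs, searched on both strands.
Retnla: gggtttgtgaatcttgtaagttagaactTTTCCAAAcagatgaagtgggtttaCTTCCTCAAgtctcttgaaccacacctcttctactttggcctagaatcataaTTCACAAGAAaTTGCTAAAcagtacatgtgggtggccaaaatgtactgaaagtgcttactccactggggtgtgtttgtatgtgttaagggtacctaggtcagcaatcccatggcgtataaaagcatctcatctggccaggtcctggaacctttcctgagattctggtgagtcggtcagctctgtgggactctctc
The STAT6 motif, TTC and GAA with any 4 bases between them, was found at -145 to -136 on the plus strand. Of the 7 promoters of 6 of the 8 genes that the table holds, only that of Retnla had it; it was found in 6.95% of all 32851 promoters of this length. The PU.1 motif GAGGAAG, bound by a myeloid factor, lay at -197 to -191 on the minus strand, overlapping 1 of the 3 matches to the C/EBP motif TTNNGNAA. PU.1 letters were found in 13.6% of all promoters and C/EBP letters in 40.7%. The GATA motif AGATAA, found in 11.2% of all promoters, had no match in any of the 7. These matches describe letters only.

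Ear2 encodes an eosinophil-associated ribonuclease, a small secreted enzyme that degrades RNA, and lies on chromosome 14, 44102654 to 44103534, plus strand. It had 386, 632, 698 and 813 CPM in cluster 13 in libraries 1-1, 1-2, 2-1 and 2-2. Its level was 571 and 772 CPM by replicate, against 91.0 and 40.95 in the shallow cluster 8, from 5 and 3 UMIs. Cluster 6 had 46.6 and 36.2 CPM, and clusters 8 and 6 overlapped each other. The log2 fold was 4.75 ± 0.47 (SD, n = 2). Ear2 was found in 37 of the 41 cells of cluster 13, against 83 of the 2961 other cells. Ear2 is 1 of a family of close copies: of the 351 windows of 50 bases in the last 400 bases of its transcript, 27.4% also occur in other Ear genes or pseudogenes, so its reads could be split. The promoter of Ear2 (RefSeq, GRCm38.p6, chr14:44102404-44102703, plus strand) is set beside that of Retnla. Its single match, to C/EBP on the minus strand at -90 to -83, is in capitals.
Ear2: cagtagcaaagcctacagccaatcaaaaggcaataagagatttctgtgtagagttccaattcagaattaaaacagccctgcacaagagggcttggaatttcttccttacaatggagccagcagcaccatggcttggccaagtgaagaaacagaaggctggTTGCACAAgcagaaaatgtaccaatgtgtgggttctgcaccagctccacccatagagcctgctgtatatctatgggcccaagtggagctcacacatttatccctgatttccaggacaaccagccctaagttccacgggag

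Lyz1 encodes a lysozyme, an enzyme that cuts bacterial cell walls, and lies on chromosome 10, 117287797 to 117292868, minus strand, beside its near copy Lyz2, the common lysozyme gene of macrophages. Lyz1 had 1665, 1562, 1769 and 4357 CPM in cluster 13 in libraries 1-1, 1-2, 2-1 and 2-2. Library 2-2 stood apart from the other 3. By replicate Lyz1 had 1587 and 3443 CPM, against 32.6 and 169.7 in cluster 3 and 149.8 and 9.69 in cluster 5. Clusters 3 and 5 overlapped each other. In cluster 3 a single cell held 26 of the 40 Lyz1 UMIs, and in cluster 5 a single cell held 87 of 119. The log2 fold was 5.64 ± 0.76 (SD, n = 2).

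The last 400 bases of the Lyz1 and Lyz2 transcripts are identical at 97.2% of 395 aligned bases, and 19.1% of the 50-base windows of Lyz1 also occur in Lyz2. The Lyz1 counts are therefore uncertain, and the part of Lyz2 reads in them was not tested. Lyz1 UMIs came to 7.78% and 18.8% of the Lyz2 UMIs in cluster 13 in replicates 1 and 2, against at most 1.06% and 1.87% in any other cluster. Lyz2 itself had 20409 and 18284 CPM in cluster 13, against 25589 and 18865 in cluster 8, where the Lyz1 share was 0.142% and 0.145%. In the cells of cluster 13 Lyz1 was uneven: 16 of 41 cells had no Lyz1 UMI, 15 had at least 10, and the 5 highest cells held 55.6% of its UMIs, while Lyz2 ran from 15 to 555 UMIs per cell with a median of 174. The 2 promoters (RefSeq, GRCm38.p6, minus strand, chr10:117292819-117293118 for Lyz1 and chr10:117282223-117282522 for Lyz2) are printed because the genes differ so much in pattern while their promoters are identical at 83.6% of 298 aligned bases.
Lyz1: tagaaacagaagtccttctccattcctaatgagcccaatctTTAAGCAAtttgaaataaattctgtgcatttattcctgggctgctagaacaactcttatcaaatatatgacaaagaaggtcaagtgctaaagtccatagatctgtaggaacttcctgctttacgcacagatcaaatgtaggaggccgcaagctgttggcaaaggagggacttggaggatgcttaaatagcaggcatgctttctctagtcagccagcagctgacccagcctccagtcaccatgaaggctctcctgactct
Lyz2: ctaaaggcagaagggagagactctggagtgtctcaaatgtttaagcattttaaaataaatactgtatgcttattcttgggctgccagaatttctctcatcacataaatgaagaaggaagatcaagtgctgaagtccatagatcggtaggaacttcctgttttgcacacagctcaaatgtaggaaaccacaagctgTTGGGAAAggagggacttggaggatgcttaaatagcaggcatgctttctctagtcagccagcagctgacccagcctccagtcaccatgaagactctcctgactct
Capitals mark the C/EBP match of each, at -209 to -202 in Lyz1 and at -55 to -48 in Lyz2, both on the strand of the gene.

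**Figure D2:**
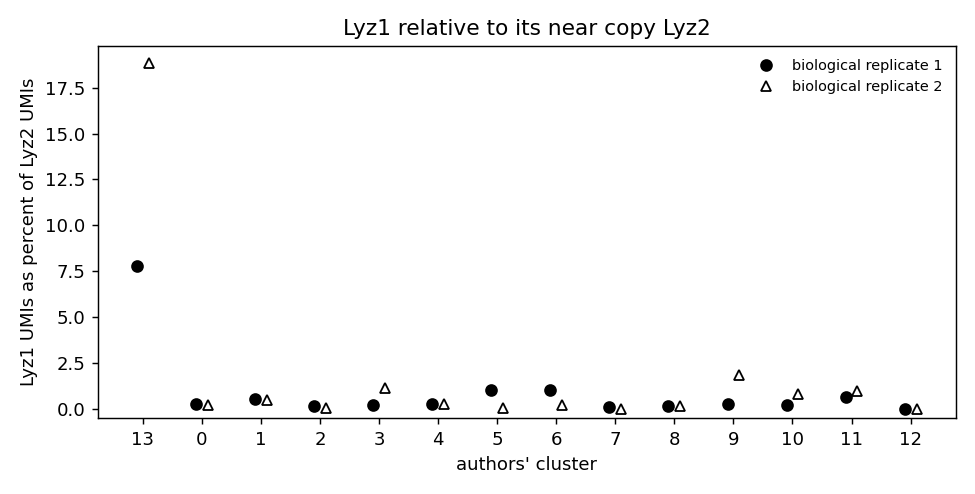
Lyz1 UMIs as a percent of Lyz2 UMIs in each of the 14 clusters, with cluster 13 at the left and a symbol for each biological replicate. Cluster 13 sits at 7.78% and 18.8%, and the highest value elsewhere is 1.87%, in cluster 9.

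Fn1 encodes fibronectin, a matrix glycoprotein that binds integrins, and lies on chromosome 1, 71585520 to 71653200, minus strand. It had 2215, 2854, 2724 and 2820 CPM in cluster 13 in libraries 1-1, 1-2, 2-1 and 2-2. These 4 values were close together. By replicate Fn1 had 2696 and 2786 CPM, against 725 and 539.8 in cluster 5, the cluster with monocyte markers, and 468 and 372 in cluster 6, which carries proliferation genes. Clusters 5 and 6 did not overlap, and the log2 fold of cluster 13 was 4.26 ± 0.18 (SD, n = 2). By number of cells Fn1 was the most widely shared of the 8 genes: it was found in 421 of the 2961 cells outside cluster 13. Those cells held 2713 of its 3784 UMIs; by this share Wnt11 (129 of 157) and Ryr1 (94 of 125) lay further outside cluster 13.

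Wnt11, on chromosome 7, 98835112 to 98855195, plus strand, encodes a secreted WNT ligand known for signalling without beta-catenin. In libraries 1-1, 1-2, 2-1 and 2-2 it had 0, 78.3, 163 and 63.5 CPM in cluster 13, from 0, 16, 7 and 5 UMIs. Its 28 UMIs came from 11 of 41 cells, and the 7 UMIs of library 2-1 were all in 1 cell. By replicate Wnt11 had 58.9 and 98.6 CPM, against 39.7 and 29.5 in cluster 4, the cluster with markers of type 2 classical dendritic cells, where 45 of 276 cells had a UMI. The log2 fold over all others was 2.34 ± 0.26, but over the highest other cluster it was 0.90 ± 0.61 (SD, n = 2). Without library 1-2 Wnt11 stood at 49.3 CPM in cluster 13 and 50.5 in cluster 4, so its first place rests on that library.

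Of the genes for surface proteins, Cd226 encodes an adhesion receptor best known from T cells and natural killer cells, which binds the poliovirus receptor and nectin-2. It lies on chromosome 18, 89176967 to 89272229, plus strand. Cd226 had 29.7, 132, 93.1 and 127 CPM in cluster 13 in libraries 1-1, 1-2, 2-1 and 2-2. The lowest value, in library 1-1, rests on 2 UMIs. By replicate Cd226 had 107 and 115 CPM, against 10.2 and 11.2 in cluster 11 and 9.32 and 10.3 in cluster 6, which overlapped each other. The log2 fold was 3.29 ± 0.08 (SD, n = 2). In 6 clusters Cd226 had no UMI.

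Bcam encodes the basal cell adhesion molecule, a receptor for laminin, and lies on chromosome 7, 19756131 to 19771016, minus strand. It had 104, 68.5, 0 and 88.9 CPM in cluster 13 in libraries 1-1, 1-2, 2-1 and 2-2. The 3 cells of library 2-1 had none, and the other libraries 7, 14 and 7 UMIs. By replicate it had 77.3 and 57.5 CPM, against 3.01 and 4.43 in cluster 9, the cluster with fibroblast genes, from 3 UMIs. Bcam was the gene most nearly limited to cluster 13 by its share of UMIs: 28 of 34, or 82.4%, with 10 clusters at 0. Its log2 fold was 2.88 ± 0.28 (SD, n = 2), and 5.58 ± 0.44 with 1 CPM added in place of 10. Without library 2-2 it was 1.53 ± 2.19, because the 3 cells of library 2-1, then all of replicate 2, had no Bcam UMI.

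Ryr1, on chromosome 7, 29003344 to 29125179, minus strand, encodes the calcium release channel of the muscle sarcoplasmic reticulum, which is also known from dendritic cells. It had 59.5, 73.4, 23.3 and 139.7 CPM in cluster 13 in libraries 1-1, 1-2, 2-1 and 2-2. Library 2-1 was lowest, with 1 UMI. By replicate Ryr1 had 70.0 and 98.6 CPM in cluster 13, against 40.98 and 52.3 in cluster 11, which carries markers of type 1 classical dendritic cells, and 25.9 and 14.3 in cluster 4. Clusters 11 and 4 did not overlap. The log2 fold was 2.31 ± 0.20 over the mean of the others and 0.73 ± 0.11 over the highest other cluster (SD, n = 2). Without library 1-2, Ryr1 had 79.0 CPM in cluster 13 and 137 in cluster 11. Ryr1 and Wnt11 thus shared dendritic-marked clusters as their next highest sites, while Retnla came next in cluster 0 and Fn1 in cluster 5.

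The 8 genes were then followed in single cells. With all UMIs counted, the 41 cells of cluster 13 held a median of 5 of the 8 genes: 28 cells had at least 5, 1 cell had all 8 and 1 cell had only 1. Retnla ran from 0 to 354 UMIs per cell with a median of 31, Fn1 from 0 to 85 with a median of 22, and Ear2 from 0 to 19 with a median of 5. Lyz1 ran from 0 to 143 with a median of 1. Cd226, Bcam, Ryr1 and Wnt11 reached at most 4, 6, 4 and 7 UMIs in a cell, and the last 3 of these had a median of 0. At such counts a cell without a UMI is not shown to lack the transcript.

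**Figure D3:**
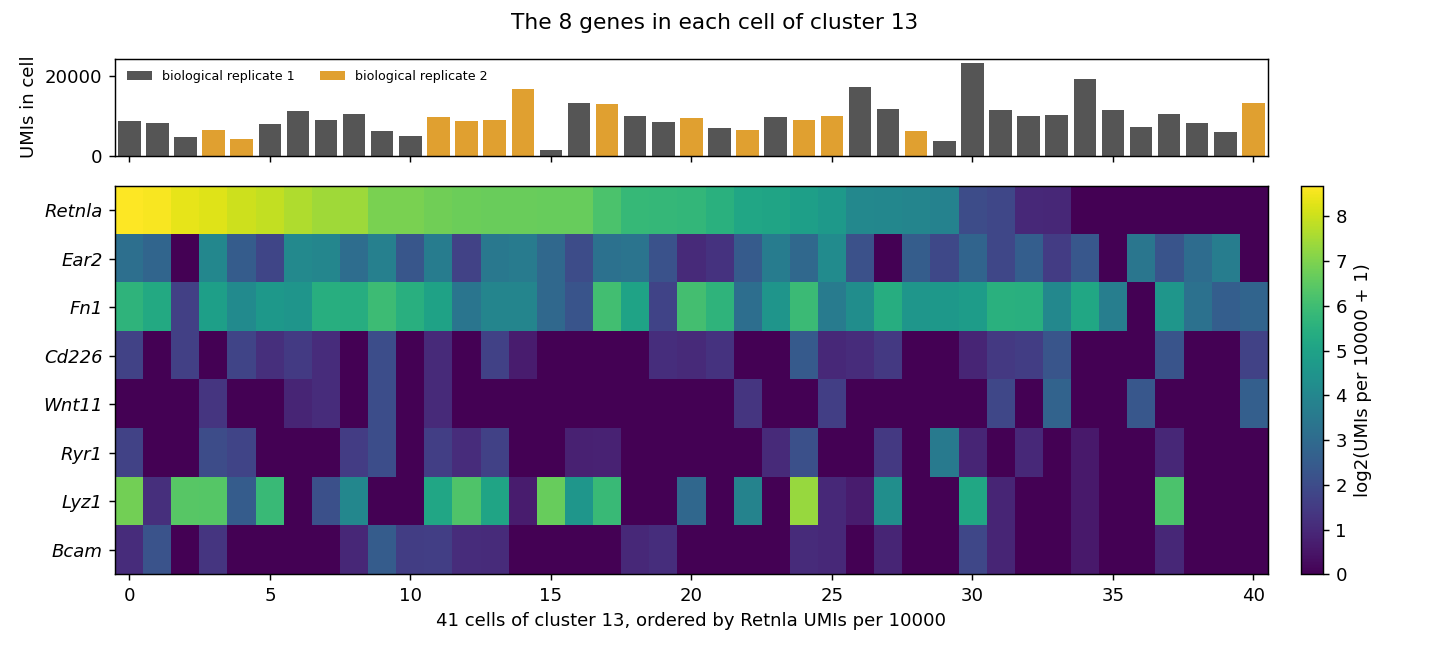
The 41 cells of cluster 13, ordered from left to right by Retnla, with the UMIs of each cell above (grey for biological replicate 1, orange for replicate 2) and the 8 genes below, coloured by log2(UMIs per 10000 + 1). Ear2 and Fn1 are found in 37 and 40 cells across the whole row, Lyz1 is found in 25 and is strong in some cells only, and the last 10 cells by Retnla include 4 with Wnt11.

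Depth differs between clusters, so every cell was also thinned to 1000 UMIs, which left out 337 shallower cells, all outside cluster 13. At least 3 of the 8 genes were then found in 22 of 41 cells of cluster 13, or 53.7% (exact 95% interval 37.4% to 69.3%), against 7 of 2624 cells of the other clusters, or 0.267% (0.107% to 0.549%). The share of other cells was 0.114% without library 2-2. By replicate the share in cluster 13 was 46.4% of 28 cells and 69.2% of 13. Without thinning it was 90.2% of cluster 13 cells and 1.59% of other cells. These intervals cover counting error only. Retnla alone was found at 1000 UMIs in 70.7% of cluster 13 cells, against 3.13% of other cells. Elsewhere it was found most often in cluster 10 (7.69% of 26 cells), cluster 0 (7.44% of 632) and cluster 3 (5.08% of 118). In clusters 11 and 12, of dendritic markers, it was found in 0 of 47 and 0 of 40 cells, where a floor of 3 counts allows a share of cells with a UMI at this depth of up to 6.38% and 7.5%, and in 2.59% of the 116 cells of cluster 7, which has neutrophil markers. The median depths before thinning were 8968 UMIs in cluster 13, 8768 in cluster 11, 5269 in cluster 12 and 1649 in cluster 7.

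**Figure D4:**
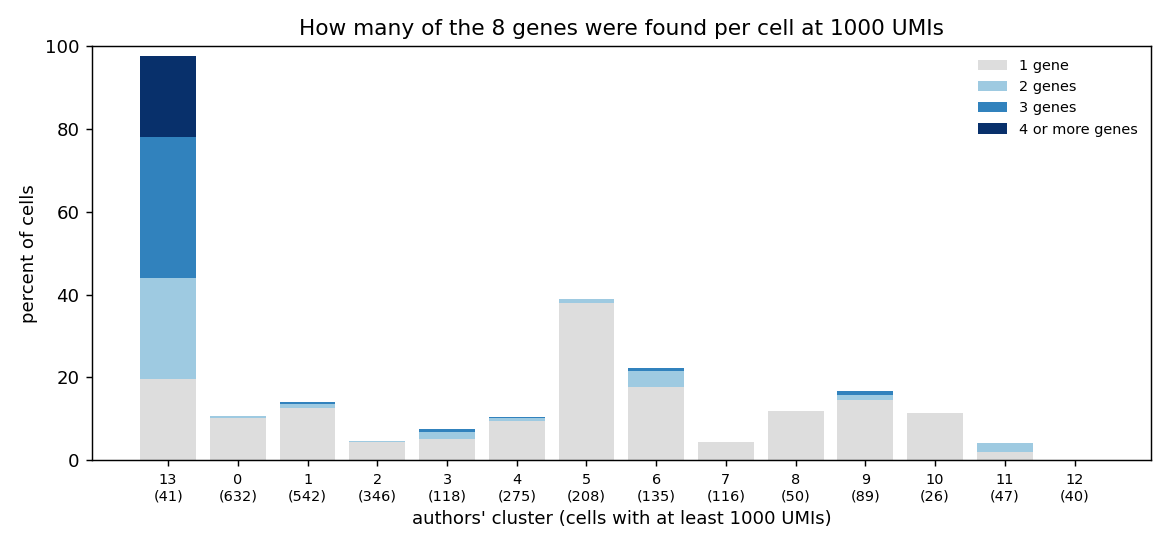
Percent of cells in each cluster in which 1, 2, 3 or at least 4 of the 8 genes were found at 1000 UMIs per cell, with cluster 13 at the left and the number of cells in brackets. In cluster 13, 53.7% of cells had at least 3 of the genes; over the other clusters together it was 0.267%, and their bars are mostly cells with a single gene.

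Inside cluster 13, joint detections of the genes were close in number to what their single shares give. Over the 28 pairs of genes at 1000 UMIs, 104 joint detections were counted in all, where the share of cells with each gene gives 100.2. The phi coefficient of a pair, a correlation between detections, ran from -0.43 to 0.38 over 41 cells, with 14 pairs above 0 and 14 below. The lowest was that of Fn1 and Wnt11, from 32 and 2 cells with no overlap. On UMIs per 10000 without thinning, Spearman's rho ran from -0.19 for Wnt11 and Lyz1 to 0.45 for Retnla and Lyz1. These are descriptions of 41 cells that share libraries and differ in depth, and weak correlations of sparse counts are no finding. In the other clusters pooled there were 43 joint detections, where the shares give 18.4, in 2624 cells of many kinds.

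There were 10 cells of cluster 13 with 0 to 3 Retnla UMIs, while the other 31 had at least 5; the limit of 5 was chosen after the values were seen. They came to 9 of 28 cells in replicate 1 and 1 of 13 in replicate 2, and were no shallower, with medians of 10423.5 UMIs in the Retnla-poor and 8863 in the other cells. Wnt11 had 19 UMIs (176 CPM) in 4 of the Retnla-poor cells, against 9 (31.5 CPM) in 7 of the rest. Of those 19 UMIs, 7 were in 1 cell. Cd226 had 139 CPM in the Retnla-poor cells and 98.1 in the rest. The other members were lower in the Retnla-poor cells. Ear2, Fn1, Ryr1, Lyz1 and Bcam had 390, 2179, 27.8, 733 and 27.8 CPM, against 725, 2929, 98.1, 2701 and 87.6 in the rest. Of the 79 Lyz1 UMIs in the Retnla-poor cells, 77 were in 1 cell, and Ryr1 and Bcam had 3 UMIs each there. Cd209a, a lectin gene of monocyte-derived and dendritic cells, had 60 UMIs (556 CPM), against 11 (38.5 CPM). It was the only 1 of 8 dendritic markers with a UMI in cluster 13; Flt3, Zbtb46, Xcr1, Clec9a and Ccr7 were at 0 in both. The complement gene C1qb went the other way, with 862 CPM in the Retnla-poor cells and 2975 in the rest. Ccr2 and the MHC class II gene H2-Ab1 were in all 10 and all 31 cells, at 1011 and 974 CPM for Ccr2 and 12056 and 8237 CPM for H2-Ab1. With the 10 cells left out, Wnt11 had 34.4 CPM in cluster 13 and 34.6 in cluster 4, and the other 7 genes were still highest in cluster 13. The part of the dendritic marker Cd209a in the Wnt11 level was not tested.

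Outside cluster 13, 12 of 2961 cells held at least 4 of the 8 genes, a number chosen after the values were seen. They lay in cluster 6 (6 cells), clusters 1 and 4 (2 each) and clusters 3 and 9 (1 each), in libraries of both replicates. They had 4044 to 21899 UMIs with a median of 12410.5, against a median of 4474 over all cells outside cluster 13. At 1000 UMIs no cell outside cluster 13 held 4 of the genes. The cells were chosen for holding these genes, so their shares of UMIs, and the lower levels without them, follow in part from the choice. These 12 cells carried 24.3% of the Retnla UMIs outside cluster 13, 36.2% of Ear2, 21.1% of Cd226, 17.4% of Lyz1, 10.6% of Fn1 and 3 of the 6 Bcam UMIs, but 1.55% of Wnt11 and 4.26% of Ryr1. Retnla was found in 11 of them. Ccr2 was also found in 11, but its share over all cells outside cluster 13 was not taken. Pooled over replicates, Retnla in cluster 6 was at 329 CPM with its 6 such cells and 35.3 without them. In cluster 3 it was at 961 CPM with 1 such cell and 196 without it, and in cluster 9 at 151 and 2.59. No such cell lay in cluster 0, whose Retnla stayed at 940.1 CPM. Of the 6 cells in cluster 6, 4 had at least 3 UMIs of the proliferation gene Mki67. The cell in cluster 9 had 14 UMIs of the fibroblast gene Dcn, against 0 or 1 in the other 11. Whether any of these cells holds RNA of more than 1 cell was not tested.

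The link to cavity macrophages was checked on 2 lists of other genes. Of 18 genes of large cavity macrophages, 15 passed the filter; none was at least 2-fold higher in both replicates of cluster 13, and 2 were lower, Saa3 and Timd4, beside 4.32% of all genes tested (480 genes) that were lower. In cluster 13, 10 of the 18 had no UMI, which 3 counts would limit to 7.63 CPM each, among them Gata6, Cxcl13, Alox15, Serpinb2 and Vsig4. Gata6, Alox15 and Serpinb2 had means of 6.20, 2.45 and 7.40 CPM over the other clusters. These lie under that limit, so their lack of UMIs cannot show a lower level in cluster 13. Cxcl13 and Vsig4 had means of 12.1 and 10.7 CPM. The list summed to 247 and 189 CPM in cluster 13, against 22.6 to 421 in the other clusters with a median of 182. The clotting factor genes F5 and F10 had log2 folds of 1.43 and 0.86, with 42.9 and 118 CPM, but each was high in 1 replicate only. The mesothelial genes, of the cells that line the cavities, were all 6 at 0.

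Of 9 genes of small or MHC class II-high cavity macrophages, Ccr2 was higher, at 836 and 1315 CPM in cluster 13 against a mean of 193 ± 34.1 in the other clusters (log2 fold 2.39 ± 0.70, SD, n = 2). Without library 1-2 its log2 fold was 0.99 in replicate 1 and 2.89 in replicate 2, so that it did not pass 2-fold in both. The other 8 did not pass 2-fold in both replicates. H2-Ab1, H2-Aa, H2-Eb1 and the invariant chain gene Cd74 had log2 folds of 0.62 to 0.75, and the list median was 0.70, against -0.14 over all genes. The growth factor receptor gene Csf1r was below the others, at -0.57. Irf4, a transcription factor gene of the small form, had 1.20 ± 1.12. H2-Ab1 had 9534 CPM in cluster 13 and 13571 in cluster 4, and the other 3 were also highest in cluster 4. Of the 9 genes, Ccr2 and Irf4 had their highest mean in cluster 13, at 1075 and 50.6 CPM. Irf4 had 84.7 and 16.4 CPM by replicate. The list summed to 46121 and 52240 CPM in cluster 13, against 6711 to 63184 in the other clusters with a median of 26277. Over both lists Ccr2 was thus the 1 gene higher past 2-fold, a share to be read beside the 1.45% of all genes. The large-form list does not bear out the label. The small-form list does not decide it: of its 9 genes only Ccr2 passed 2-fold in both replicates, and the MHC class II genes were higher in cluster 4. No cell type is assigned to the set or to cluster 13 here.

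**Figure D5:**
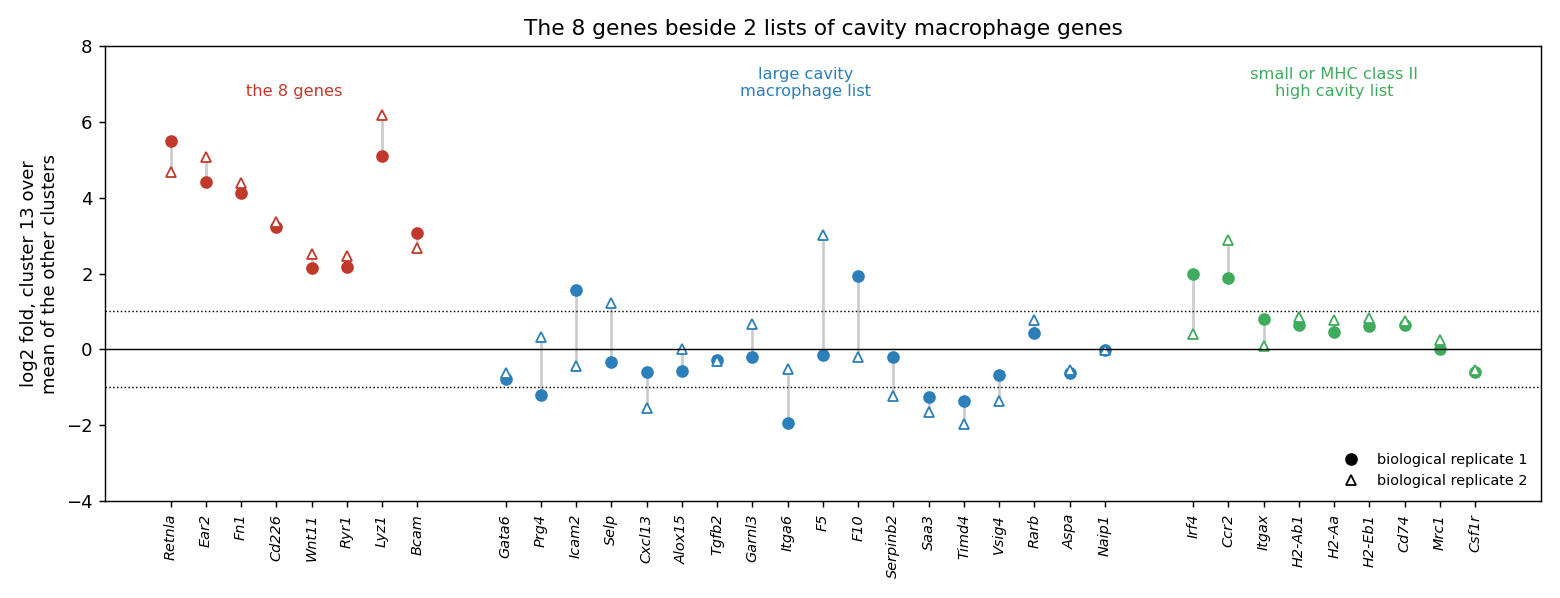
Log2 fold of cluster 13 over the mean of the other 13 clusters for the 8 genes, 18 large cavity macrophage genes and 9 small or MHC class II-high cavity macrophage genes, with a symbol for each biological replicate. Dotted lines mark 2-fold; all 8 genes lie above the upper line in both replicates, no gene of the large form does, and Ccr2 does among those of the small form.

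Most markers of other cell types were lower in cluster 13 or did not pass 2-fold, where 4.32% of all genes tested were lower and 1.45% higher. Of 10 resident macrophage genes 8 were lower, such as Lyve1 at 31.3 ± 44.3 CPM in cluster 13 against 163 ± 26.5 in the others, and Folr2 at 27.6 ± 39.1 against 267 ± 2.25 (SD, n = 2). F13a1 and Mrc1 were not, at log2 folds of 0.12 each. All 6 neutrophil, all 6 fibroblast and all 4 erythroid genes were lower. The mean of the others includes the clusters highest for these lists, 7, 9 and 3, so a lower call says little by itself. In cluster 13 the neutrophil list summed to 14.7 and 0 CPM, against a median of 65.8 over the other clusters. The fibroblast list summed to 88.4 and 82.2 CPM against a median of 106, and the erythroid list to 18.4 and 8.22 CPM against 86.0. The 5 eosinophil genes in the table summed to 3.68 and 8.22 CPM in cluster 13, and those of lymphocytes to 3.68 and 16.4 CPM. Of 11 monocyte genes 5 were lower, Plac8 and Ly6c2 among them with no UMI in cluster 13, and Ccr2 was the 1 that was higher. Of 8 dendritic cell genes 6 were lower, again against a mean that includes the cluster highest for the list, cluster 12. The list summed to 206 and 123 CPM in cluster 13, all of it from Cd209a. In the other clusters it summed to 0 to 6886 CPM with a median of 67.5, so cluster 13 lay above that median. The 5 endothelial genes summed to 44.2 and 41.1 CPM in cluster 13, from 17 UMIs, and to 0 to 25.9 in the other clusters, so this list was highest in cluster 13. Its leading genes there were Pecam1 and Vwf with 7 and 6 UMIs, Kdr was at 0, and none of the 3 tested passed 2-fold in both replicates. The 4 smooth muscle genes summed to 36.8 and 0 CPM, against 0 to 163, and Myh11 was at 0. The part of the endothelial and smooth muscle markers in the levels of the 8 genes was not tested. Of the macrophage genes Lyz2 was higher, at a log2 fold of 1.12, C1qa was lower, and Adgre1, the gene of F4/80, was found in 29 of 41 cells. Of 12 genes of dissociation stress none passed 2-fold in either direction, and the list summed to 14436 and 19624 CPM in cluster 13, against 589 to 54645 in the other clusters.

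Few relatives and partners of the 8 genes were higher in cluster 13, where 1.45% of all genes tested were higher and 4.32% lower. Of 10 tested genes of the interleukin 4 response, Mgl2, a macrophage lectin gene, was higher at 777 ± 51.9 CPM against 361 ± 39.96 in the other clusters (log2 fold 1.09 ± 0.06, SD, n = 2). Its highest mean was in cluster 0, however, at 957 CPM. Chil3, Ccl17 and Ccl24 were lower, with 0, 0 and 3 UMIs in cluster 13. Arg1, another classic gene of that response, had 2 UMIs. The STAT6 gene Stat6 and the receptor gene Il4ra had log2 folds of 0.63 and -1.24 and passed in neither direction. The other genes of the resistin-like family, Retn and Retnlg, had no UMI in cluster 13. Of the Ear2 family, Ear1 and Rnase2a had 1 and 3 UMIs, all in cluster 13 in the whole table. Ang and Rnase4, ribonuclease genes on the same list that are not Ear genes, were lower, at log2 folds of -1.996 and -2.35.

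Of 9 tested receptors and partners of fibronectin, none was higher and the crosslinker gene Tgm2 and the syndecan gene Sdc4 were lower, at -1.86 and -1.37. The integrin genes Itga4, Itga5, Itgav and Itgb1 ran from -0.57 to 0.43. Thrombospondin 1 (Thbs1) had 639 ± 165 CPM in cluster 13 against 317 ± 79.8 in the others, a log2 fold of 0.99 ± 0.73 that did not pass in both replicates. Pvr, a ligand of CD226, had 46.7 ± 3.62 CPM against 52.7 ± 3.44. None of 8 tested WNT11 receptors and partners, 10 calcium store genes or 4 laminin genes passed 2-fold in either direction. Aldh1a2, which makes retinoic acid, was the exception among 9 tested genes of the retinoid and GATA6 axis, with 102 ± 16.8 CPM in cluster 13 against 4.72 ± 3.12 (log2 fold 2.94 ± 0.09). Cluster 13 held 42 of its 80 UMIs, in 20 of 41 cells.

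All genes other than the 8 were ranked by how closely their level followed each of the 8 over the 14 clusters, as Pearson's r of log2(CPM + 10) with 4539 genes, the 8 included where they passed, that reached 50 CPM in some cluster in both replicates and had a UMI in at least 10 cells. The T cell adhesion gene Cd2 was closest to Cd226 (r = 0.91) and Lyz1 (0.83), and second for Bcam (0.87). It had 135 ± 29.7 CPM in cluster 13 against 30.7 ± 4.39 in cluster 6, the next highest (SD, n = 2). Upb1, a pyrimidine breakdown gene, was closest to Bcam (0.88) and Wnt11 (0.85) and second for Cd226 (0.86), with 76.1 ± 8.63 CPM in cluster 13 and 13.9 ± 7.76 in cluster 4. Dok2 and Adam15 followed Retnla (0.89 each), Cd300lg followed Ear2 (0.82), Gpalpp1 and Socs6 followed Fn1 (0.86 and 0.85), and Sept9 followed Ryr1 (0.90). Within single replicates the genes ranked in this way had values of 0.63 to 0.93. Among the 8 genes themselves r ran from 0.16 for Retnla and Ryr1 to 0.92 for Cd226 and Bcam. All points share the 4 libraries, cluster 13 weighs heavily in each r, and the values are descriptions.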

How the data were processed

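Live CD45+ aortic leukocytes were sequenced with 10x Genomics 3' chemistry, and per the labels' protocols Cell Ranger 3.0.2 was used by the authors for alignment to the mm10 build; Seurat 3.1.1 is named in the submitters' processing notes. The deposited counts are raw UMI counts of 18825 genes in 3002 cells that the authors kept as myeloid, and the deposited per-cell totals equal their sums in all 3002 cells. Cluster numbers and the percent of mitochondrial UMIs per cell were used as the authors deposited them. The deposited log-normalized table was not used. Cell filters, doublet removal and clustering settings are not stated in the sources, and no doublet caller was run here.

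Counts were summed per cluster and biological replicate and scaled to CPM (Python 3.11.15, pandas 2.3.3, numpy 2.4.6). Folds are log2(CPM + 10) of cluster 13 minus log2 of the mean CPM of the other clusters + 10, per replicate, over 11101 genes with at least 10 UMIs in each replicate, and a gene counted as higher or lower when past 2-fold in both. Cells were thinned to 1000 UMIs with a fixed seed. Intervals are exact binomial (Clopper-Pearson, scipy 1.17.1), and a count of 0 allows up to 3 counts. Cluster 13 was not tested against the other clusters, because the genes were chosen from that contrast; values of the 4 libraries were examined for 1 far from the rest by Dixon's criterion. The fold step was tested on simulated data. Alternatives were TMM scaling (edgeR 4.0.16, R 4.3.3), 1 CPM as the added value, the highest other cluster, left-out clusters, cells and libraries, mean levels over cells, no filter, and other depths and thresholds.

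The members and lists were chosen with earlier results of these data known. Named genes are the 8 members, the 3 genes closest to each over the clusters, up to 4 list members past 2-fold in both replicates, relatives and partners with at least 10 UMIs, Lyz2, and markers of other cell types at 0. F5, F10, Irf4, Csf1r, the MHC class II genes, Cd74, Arg1, Retn, F13a1, Mrc1, Adgre1, Pecam1, Vwf, Ear1, Rnase2a, Cd209a, C1qb, Mki67 and Dcn were named after their values were seen. Coordinates are from GENCODE M21, and promoters from RefSeq on GRCm38.p6, where 6 of the 8 members were found and searched.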

Additional observations from a re-analysis of the deposited data

Results flagged for a closer look

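Lyz1 stood out in 1 library. In the cluster 13 cells of library 2-2 it had 4356.5 CPM, against 1665, 1562 and 1769 in libraries 1-1, 1-2 and 2-1, a gap to the nearest library too large for the range of the 4. The 10 cells of library 2-2 had 343 Lyz1 UMIs, 143 of them in 1 cell. Without library 2-2 the log2 fold of Lyz1 in cluster 13 over the other clusters was 5.68, against 5.64 with it. Of 9 groups of 4 libraries examined in this way this was the single case. Chance gives about 1 in 20 groups, which is 0.45 cases over 9.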

How the results depend on the processing

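The median log2 fold of the 8 genes was 3.78. It was 3.62 without clusters 3, 8 and 10, 4.02 with the deepest 5% of cells of each library left out, 4.96 with 1 CPM added and 2.49 against the highest other cluster; it ran from 3.68 to 3.91 with 1 library left out. Of 96 values of single genes under the alternatives, 63 moved by less than the replicate SD and 33 by more, no mean over replicates turned direction, and they ran from 0.73 to 5.99. At least 7 genes stayed past 2-fold in both replicates with 1 library left out, and 6 (not Wnt11 and Ryr1) against the highest other cluster. All 8 genes were highest in cluster 13 except without library 1-2 (6 genes, not Wnt11 and Ryr1) and, in an alternative added after the data were seen, without the Retnla-poor cells (7 genes, not Wnt11). The count of cavity markers past 2-fold was 1, and ran from 0 (without library 1-2) to 1 with 1 library left out. The share of cluster 13 cells with at least 3 of the genes, 53.7%, was 34.1% at 500 UMIs per cell, 70.0% at 2000 and 90.2% without thinning. It was 36.6% without Lyz1, and 78.0% and 19.5% for at least 2 and at least 4 genes, and ran from 45.2% to 58.8% with 1 library left out. In the other clusters the share, 0.267%, was 0.135% at 500 UMIs, 0.82% at 2000 UMIs, 1.59% without thinning, 0.0762% without Lyz1, and 1.11% and 0% for at least 2 and at least 4 genes, and ran from 0.114% (without library 2-2) to 0.391% with 1 library left out. With fewer UMIs kept, fewer genes can be found by construction; the cause of the other shifts was not tested. No condition could be compared because all mice belong to 1 group. No test between clusters was run, paired or not, and the folds were taken between clusters of the same replicate. With 41 cells, 3 of them in library 2-1 and 4 in library 1-1, genes under 50 UMIs (Cd226, Wnt11, Ryr1, Bcam) are read least precisely.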
